A study of Mus musculus with 36 samples.

Results

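The liver transcriptome of Mlkl Adi-KO mice on a high-fat diet (HFD) was compared with that of Mlkl Adi-KO mice on a normal chow diet (NCD). The comparison held 9 libraries, 5 from mice on HFD and 4 from mice on NCD, of the 36 libraries in the series, chosen by the tissue, genotype and diet in their labels. The series profiled liver and visceral white adipose tissue (visWAT) of Mlkl Adi-KO mice and WT littermates by poly(A) RNA-seq after 16 weeks on either diet, to ask how loss of the pseudokinase MLKL in fat cells alters the response to obesity. All mice were males on a C57BL/6J background that entered the diets at 16 weeks of age. In Mlkl Adi-KO mice both Mlkl alleles were floxed and an Adipo-Cre transgene was present, whereas the WT littermates carried the floxed alleles without Cre, so that the HFD and NCD groups compared here shared the same floxed, Cre-positive genotype and differed in diet. Adipo-Cre acts in mature adipocytes and liver is not its target. The WT livers, 5 on HFD and 4 on NCD, were used only to set the diet effect of the knockouts beside that of the littermates.

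Liver takes up, makes, stores, burns and exports fat, and these tasks are set by transcription factors that read nutrients and hormones. SREBP2 switches on cholesterol synthesis when sterols are low, SREBP1c and ChREBP drive fatty acid synthesis after feeding, and PPARα drives fat burning in fasting. Hepatocytes also make bile acids from cholesterol, turn amino acid nitrogen into urea, secrete plasma proteins, and run a circadian clock that follows the timing of meals.

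Reads on genes ranged from 20875463 to 24203577 per knockout liver, with 5.16% to 5.73% of them on mitochondrially encoded genes. The 10 most abundant genes took 15.7% to 16.9% of reads on HFD and 18.7% to 19.8% on NCD. As a check of the labels, Mlkl in visWAT stood at 2.53 ± 0.17 FPKM (fragments scaled to gene length and library size, SD, n = 5) on HFD and 2.19 ± 0.22 FPKM (SD, n = 4) on NCD in the knockouts, beside 5.29 ± 0.65 FPKM (SD, n = 5) and 3.99 ± 1.23 FPKM (SD, n = 4) in WT. The library labelled WT NCD mouse 182 read 2.29 FPKM in visWAT, within the range of the knockouts, and its liver held 924 FPKM of summed Mup (major urinary protein) transcripts, beside 16240 to 18132 FPKM in the other WT NCD livers. The 95% intervals of differences between genotypes include it. In knockout liver, Mlkl was 2.07, 3.46, 1.81, 2.07 and 2.02 FPKM on HFD (mice 151, 152, 153, 156 and 157, the order kept throughout) and 2.39, 3.94, 2.23 and 1.62 FPKM on NCD (mice 166, 179, 197 and 199), with no difference past the threshold (log2 fold change -0.093, SE 0.19, adjusted p = 0.765). The hepatocyte markers Alb, Apoa1, Apob, Ttr and Serpina1a were among the abundant transcripts of every liver, and the 9 hepatocyte markers found in the table summed to 42641 to 52697 FPKM on HFD and 59395 to 64713 FPKM on NCD. Of these 9 markers Alb and Ttr fell and Asgr1 rose. Alb (-0.50, adjusted p = 0.00839) passed whichever mouse was left out and did not pass when no filter on low genes was used (adjusted p = 0.683). Ttr (-0.32) did not pass without mouse 151, 152, 153, 197 or 199 (adjusted p up to 0.0664), and Asgr1 (0.28) did not pass without any of the mice other than 152 and 199 (adjusted p up to 0.104). In bulk RNA, fewer cells of a type and less RNA per cell cannot be told apart.

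Diet separated the knockout livers along the main axis of variation. PC1 held 45.1% of the variance of log2(FPKM + 1) over 13149 genes, and the HFD livers lay between 16.5 and 24.1 on it and the NCD livers between -26.99 and -23.96. PC2 held 13.0% and spread the HFD group itself, with mouse 152 at 27.0 and mouse 153 at 13.3 apart from mice 151, 156 and 157, which lay between -14.2 and -10.5.

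**Figure D1:**
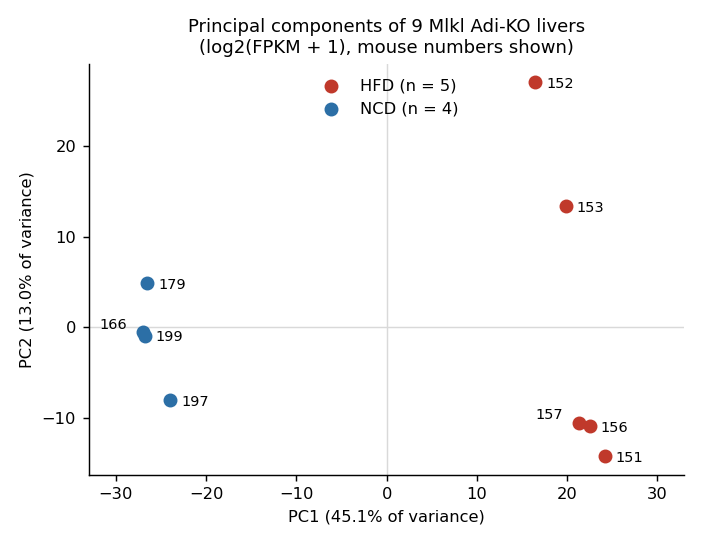
Positions of the 9 Mlkl Adi-KO livers on the first 2 principal components of log2(FPKM + 1), with the percent of variance on each axis and 1 point per mouse. HFD livers lie at 16.5 to 24.1 on PC1 and NCD livers at -26.99 to -23.96, while PC2 sets mice 152 and 153 apart from the other 3 HFD mice.

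Of 13149 genes with a mean of at least 0.5 FPKM, 2919 (22.2%) differed between the diets at an adjusted p under 0.05 (limma on log2(FPKM + 1), Benjamini-Hochberg). A total of 1563 genes (11.9%) were higher on HFD and 1356 (10.3%) were lower, and 349 of the 2919 changed by at least 1 on the log2 scale, 178 upward and 171 downward. The median log2 fold change over all genes tested was 0.003. In 1531 genes (11.6%) every HFD liver was above every NCD liver, and in 1301 (9.89%) every HFD liver was below. Fold changes are differences of mean log2(FPKM + 1) and understate those of low genes. Each count of called members in the gene lists below is to be read beside these shares of 11.9% higher and 10.3% lower. Their balance depended on scaling. With FPKM rescaled to the same sum in every liver (the TPM scale), 1407 genes were higher and 1442 lower.

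**Figure D2:**
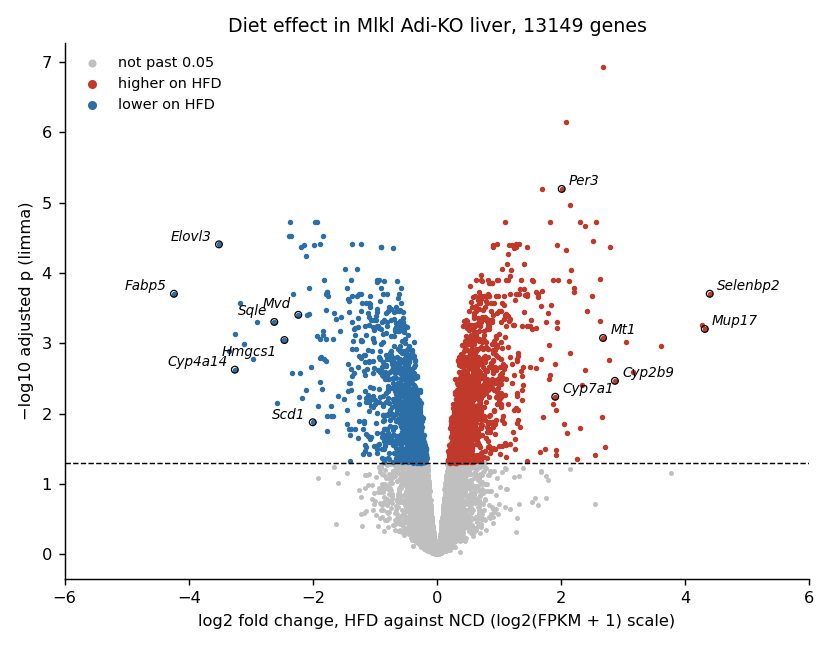
Log2 fold change of each of 13149 genes between HFD and NCD livers of Mlkl Adi-KO mice (x axis) against the −log10 of limma's adjusted p (y axis), with the 0.05 threshold dashed. The 1563 higher and 1356 lower genes spread to 4.40 (Selenbp2) and -4.24 (Fabp5).

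Among genes with at least 5 FPKM in the higher group and no overlap between diets, the 15 largest rises were led by Selenbp2, a selenium-binding protein, and by 7 major urinary proteins (Mup17, Mup11, Mup12, Mup15, Mup7, Mup9 and Mup1). The others were Cyp2b9, the metallothionein Mt1, the complement factor D gene Cfd, the organic anion transporter Slc22a7, the thyroid hormone deiodinase Dio1, the nicotinamide methyltransferase Nnmt and Nrep. Selenbp2 measured 576, 148, 166, 454 and 373 FPKM on HFD and 9.91, 14.5, 22.6 and 9.39 FPKM on NCD. Every HFD liver was above every NCD liver, and mice 152 and 153 were the lowest of the HFD group (log2 fold change 4.40, SE 0.43, adjusted p = 0.000198). Dio1, which converts thyroxine to its active form, was 141, 109, 138, 115 and 88.7 FPKM on HFD and 19.2, 15.6, 17.997 and 23.3 FPKM on NCD, without overlap as the selection required (log2 fold change 2.57, SE 0.15, adjusted p = 1.92e-05). Nnmt, which uses methyl groups to clear nicotinamide, rose from 14.6 ± 5.82 FPKM on NCD (SD, n = 4) to 84.02 ± 18.6 FPKM on HFD (SD, n = 5) (log2 fold change 2.50, adjusted p = 0.000213).

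The 15 largest falls, also picked among genes without overlap between diets, were led by the fatty acid carrier Fabp5 and the elongase Elovl3. Cyp4a14, Chrna4, Igfbp1, Pltp, Ppp1r3g, Sqle, Csad, Hmgcs1, Pdzk1ip1, Cyp4a31, Rdh11, Mvd and Cib3 followed. Fabp5 was 0.977, 2.56, 0.696, 5.17 and 5.60 FPKM on HFD and 48.2, 82.3, 76.8 and 55.2 FPKM on NCD, and the lowest NCD liver was far above the highest HFD liver (log2 fold change -4.24, SE 0.41, adjusted p = 0.000198). Elovl3, which extends saturated and monounsaturated fatty acids, measured 15.2, 27.2, 36.98, 14.7 and 19.5 FPKM on HFD and 235, 252, 293 and 241 FPKM on NCD (log2 fold change -3.51, SE 0.24, adjusted p = 3.93e-05). The NCD values lay close together and none reached the HFD range. Csad, an enzyme of taurine synthesis, read 13.8, 33.2, 29.9, 20.8 and 9.77 FPKM on HFD and 137, 41.5, 138 and 275 FPKM on NCD, with the smallest gap between diets at NCD mouse 179 (log2 fold change -2.57, SE 0.52, adjusted p = 0.00702).

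**Figure D3:**
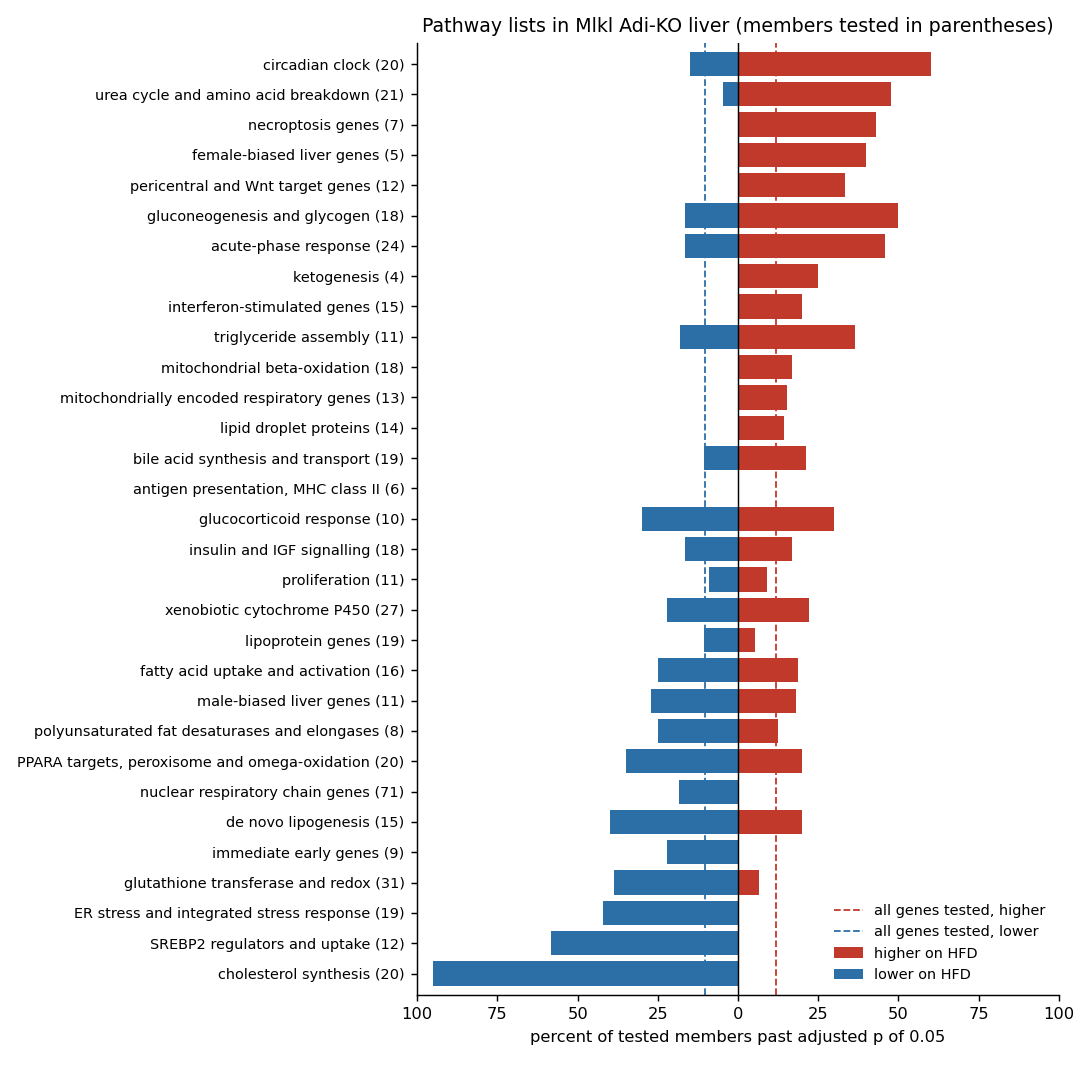
Percent of tested members of each pathway list that were higher (right) or lower (left) on HFD in Mlkl Adi-KO liver at an adjusted p under 0.05, with the number of members tested in parentheses and the shares over all genes, 11.9% and 10.3%, as dashed lines. Cholesterol synthesis reaches furthest to the left, with 19 of 20 members lower, and the circadian clock furthest to the right, with 12 of 20 higher.

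Cholesterol synthesis was lower across almost the whole pathway. Of 20 members tested, 19 fell and none rose, beside 10.3% of all genes that fell, and the median log2 fold change was -1.17. Hmgcs1, which makes HMG-CoA, was 11.6, 28.01, 23.7, 12.7 and 11.5 FPKM on HFD and 97.5, 156, 61.8 and 82.6 FPKM on NCD (log2 fold change -2.46, SE 0.33, adjusted p = 0.000899). Sqle, which oxidises squalene, read 0.750, 4.52, 2.45, 2.89 and 2.78 FPKM on HFD and 21.6, 31.03, 14.4 and 17.2 FPKM on NCD (log2 fold change -2.62, SE 0.31, adjusted p = 0.000497). Neither enzyme overlapped between diets, as the selection among the largest falls required, and mouse 151 was the lowest HFD liver for Sqle. Between them in the pathway, the mevalonate enzymes Pmvk (-2.12) and Mvd (-2.23), the isomerase Idi1 (-2.02) and the prenyl synthase Fdps (-1.43) fell as well, as did Cyp51 (-1.93) and Nsdhl (-1.78) on the route from lanosterol. The smallest fall that passed was Ebp at -0.21. The members summed to 447 to 753 FPKM on HFD and 1043 to 1407 FPKM on NCD.

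The promoters of this pathway are shown because it was the list with the largest share of members called in one direction. RefSeq windows of the 250 bases before the transcription start (GRCm38.p6) were found for 15 of the 20 members, and each was placed on GRCm39 by its only exact match. They were searched on both strands for TCACNCCAC, a form of the sterol regulatory element, and for CCAAT, the NF-Y motif (ATTGG on the other strand). CCAAT was present in 13 of the 15 windows (86.7%), beside 33.8% of 32851 RefSeq windows of the same length. TCACNCCAC was present in 1 of the 15 (6.67%), beside 1.05% of all windows. Both counts used whole windows, with bases annotated as UTR included. Such bases filled all 250 positions for Nsdhl and Tm7sf2. The list kept 1 window per gene, whereas the 32851 windows could hold several for a gene. The windows of Hmgcs1, Pmvk, Sc5d and Hsd17b7, which fell by 2.46, 2.12, 1.17 and 0.86 on the log2 scale, are given without the bases annotated as UTR and 5′ to 3′, with both motifs in capitals. They were picked among called members because their longest stretch free of UTR had at least 150 bases and held a motif. The stretches of Cyp51 (196 bases) and Acat2 (221 bases) were long enough but held no motif and are not shown. Hmgcs1 lies at chr13:120151637-120151886 on the plus strand, Pmvk at chr3:89361598-89361757 on the plus strand, Sc5d at chr9:42175606-42175846 on the minus strand and Hsd17b7 at chr1:169796814-169797024 on the minus strand (GRCm39).
Hmgcs1: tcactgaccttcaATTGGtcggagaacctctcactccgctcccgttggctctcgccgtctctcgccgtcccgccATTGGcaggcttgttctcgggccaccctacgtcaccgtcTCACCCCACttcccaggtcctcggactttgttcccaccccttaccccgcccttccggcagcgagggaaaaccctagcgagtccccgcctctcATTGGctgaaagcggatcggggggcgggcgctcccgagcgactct
Pmvk: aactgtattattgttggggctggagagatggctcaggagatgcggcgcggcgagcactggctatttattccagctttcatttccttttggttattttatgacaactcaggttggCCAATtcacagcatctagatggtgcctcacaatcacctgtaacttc
Sc5d: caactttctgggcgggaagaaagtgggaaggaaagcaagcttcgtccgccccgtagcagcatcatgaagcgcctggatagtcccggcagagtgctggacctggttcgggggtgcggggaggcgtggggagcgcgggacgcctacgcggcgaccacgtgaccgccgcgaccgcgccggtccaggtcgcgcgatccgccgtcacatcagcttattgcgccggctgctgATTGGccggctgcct
Hsd17b7: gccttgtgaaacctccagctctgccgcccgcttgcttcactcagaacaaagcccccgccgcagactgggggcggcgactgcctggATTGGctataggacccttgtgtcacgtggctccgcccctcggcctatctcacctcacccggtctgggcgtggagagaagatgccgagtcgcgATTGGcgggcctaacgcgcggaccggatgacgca
The TCACNCCAC match was TCACCCCAC in the Hmgcs1 window. A match describes the letters of a window and was not tested as a binding site.

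The sensors and partners of SREBP2 followed in the same direction in part. Of 12 regulators and uptake genes tested, 7 fell (median -0.37). Insig1, which holds the SREBP complex in the endoplasmic reticulum, was 39.4, 87.9, 69.8, 46.5 and 54.8 FPKM on HFD and 154, 229.9, 123 and 131 FPKM on NCD (log2 fold change -1.42, SE 0.25, adjusted p = 0.00372). The diets did not overlap. Insig2 (-1.15), its relative, and Scap (-0.55), the sterol-sensing escort of SREBP, fell as well. Srebf2 itself fell by 0.33 (adjusted p = 0.0482), a call that was lost when mouse 151, 153, 156, 157, 166, 179 or 199 was left out, with adjusted p up to 0.127.

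**Figure D4:**
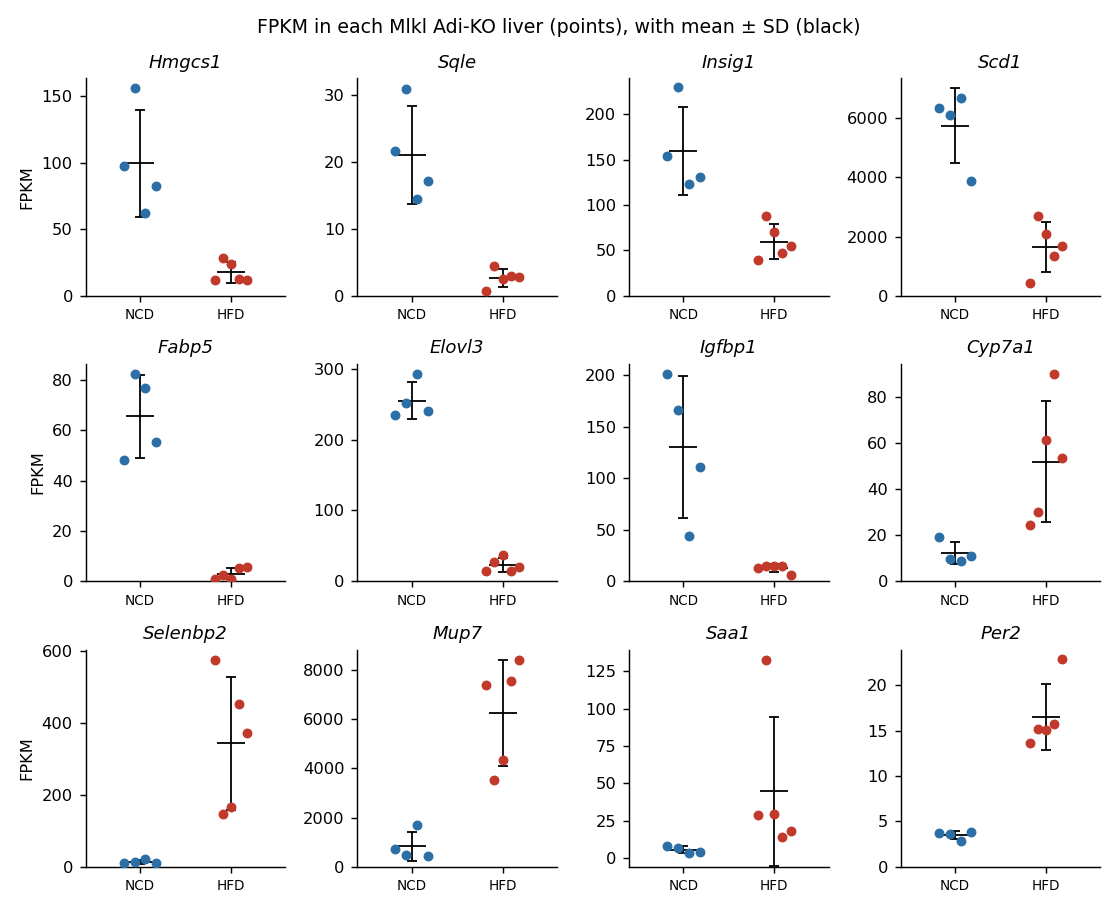
FPKM of 12 genes in each Mlkl Adi-KO liver on NCD (blue, n = 4) and HFD (red, n = 5), with black bars for mean ± SD and a linear axis for each gene. In all 12 genes no HFD liver enters the range of the NCD livers. Hmgcs1, Sqle, Fabp5, Elovl3, Igfbp1, Selenbp2 and Mup7 were picked among genes without overlap. Of all genes tested, 11.6% were higher and 9.89% lower on HFD without overlap. Saa1 is set off by mouse 152 at 133 FPKM.

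Fatty acid synthesis moved in both directions. Of 15 genes of de novo lipogenesis tested, 6 fell and 3 rose, with a median of -0.77. Scd1, the desaturase that makes oleate, measured 431, 2706, 2101, 1336 and 1667 FPKM on HFD and 6332, 6104, 6684 and 3886 FPKM on NCD, and mouse 151 was the lowest (log2 fold change -2.002, SE 0.46, adjusted p = 0.0133). Acss2 (-1.78), which activates acetate, and the malic enzyme Me1 (-1.78), a source of NADPH, fell without overlap. Srebf1, which encodes the lipogenic factor SREBP1, rose at the same time, with 191, 169, 148, 142 and 272 FPKM on HFD and 94.5, 75.2, 54.3 and 54.7 FPKM on NCD (log2 fold change 1.39, SE 0.22, adjusted p = 0.00214), as did Thrsp (1.83, adjusted p = 0.000286) and the pyruvate kinase Pklr (1.45, adjusted p = 0.000198). Fasn, the fatty acid synthase, was 63.02, 157, 101, 77.6 and 213 FPKM on HFD and 279, 258, 115 and 158 FPKM on NCD and did not pass (log2 fold change -0.77, SE 0.38, adjusted p = 0.179), nor did Acaca (-0.36, adjusted p = 0.227) or Mlxipl, which encodes ChREBP (0.16, adjusted p = 0.316). Among 8 genes of polyunsaturated fat synthesis, Elovl5 (-1.71) and Elovl2 (-0.78) fell, Fads6 rose (0.31), and the desaturases Fads1 and Fads2 did not pass (adjusted p = 0.285 and 0.9).

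In triglyceride assembly, 4 of 11 genes tested rose and 2 fell. The acyltransferases Agpat1 (0.68), Agpat2 (0.49) and Gpat4 (0.64) and Dgat2, which adds the last acyl chain (0.87, adjusted p = 0.000345), were the ones that rose. The ones that fell were both lipins, phosphatidate phosphatases. Lpin1 was 20.9, 16.7, 18.99, 31.2 and 29.3 FPKM on HFD and 54.7, 56.1, 62.3 and 59.6 FPKM on NCD (log2 fold change -1.32, SE 0.17, adjusted p = 0.000774), and Lpin2 was 23.3, 43.3, 42.4, 30.8 and 27.4 FPKM on HFD and 56.9, 58.4, 64.6 and 69.98 FPKM on NCD (log2 fold change -0.92, SE 0.18, adjusted p = 0.00579). For both genes the highest HFD liver was below the lowest NCD liver. Of 14 lipid droplet genes, Fitm2 (0.68, adjusted p = 0.00634) and the lipase inhibitor G0s2 rose, the latter with adjusted p = 0.0327 and up to 0.0854 when any mouse other than 156 and 199 was left out. The droplet fusion gene Cidec measured 13.8, 63.3, 78.002, 16.4 and 6.55 FPKM on HFD and 3.57, 5.51, 5.72 and 27.1 FPKM on NCD. Mice 152 and 153 were high, NCD mouse 199 was above the other 3 HFD livers, and the difference did not pass (log2 fold change 1.53, SE 0.76, adjusted p = 0.18). Cidea followed the same mice, with 4.004, 11.7, 14.4, 2.22 and 0 FPKM on HFD and 0, 0.0515, 0.0512 and 5.33 FPKM on NCD (log2 fold change 1.62, SE 0.84, adjusted p = 0.2), and Plin2, the main coat protein of hepatic droplets, stood at -0.48 (adjusted p = 0.19).

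Among 16 genes of fatty acid uptake and activation, 3 rose and 4 fell, beside 11.9% and 10.3% of all genes. Fabp5, Lpl (-1.88), which releases fatty acids from lipoproteins, the acyl-CoA synthetase Acsl5 (-1.14) and Fabp1 (-0.65) fell, while Acsl1 (0.47), Acsm3 (0.67) and Slc27a2 (0.32) rose. Cd36 was 21.7, 61.1, 54.4, 19.5 and 17.97 FPKM on HFD and 42.5, 49.8, 43.8 and 59.9 FPKM on NCD, with mouse 153 in the NCD range, mouse 152 just above it and the other HFD livers below it (log2 fold change -0.66, SE 0.37, adjusted p = 0.233). Of 20 PPARα target, peroxisomal and omega-oxidation genes tested, 7 fell and 4 rose (median -0.39). Cyp4a14, an omega-hydroxylase, measured 72.9, 147, 343, 46.5 and 49.7 FPKM on HFD and 1018, 838, 813 and 1112 FPKM on NCD (log2 fold change -3.26, SE 0.52, adjusted p = 0.00237). Ehhadh, a peroxisomal oxidation enzyme, was 112, 136, 147, 117 and 122 FPKM on HFD and 610.5, 491, 487 and 417 FPKM on NCD (log2 fold change -1.97, SE 0.12, adjusted p = 1.92e-05). Neither overlapped, which the selection among the largest falls required for Cyp4a14, and mouse 153 was the highest HFD liver for both. Ppara itself rose, from 31.8 ± 7.31 FPKM on NCD (SD, n = 4) to 60.1 ± 14.1 FPKM on HFD (SD, n = 5) (log2 fold change 0.89, adjusted p = 0.0132). Pdk4, which shuts pyruvate out of mitochondria, fell by 1.26 (adjusted p = 0.00723), and Cpt1a, the gate of mitochondrial oxidation, rose by 0.70 (adjusted p = 0.0059). Of 18 mitochondrial oxidation genes 3 rose and none fell, but 1 rose without mouse 152, 153, 156, 166, 197 or 199, 1 rose on the TPM scale, and 1 fell without mouse 153. Of 4 ketogenic genes 1 rose, and none did without mouse 151, 153, 156, 166, 179, 197 or 199. The fasting hormone Fgf21 stood at -1.22 (adjusted p = 0.15).

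Of 19 lipoprotein genes, 1 rose and 2 fell, beside 11.9% and 10.3% of all genes, so that the falls were near the share over all genes. There were 0 to 2 rises and 1 to 2 falls when each of the 9 mice was left out in turn, and 2 rises without mouse 152 alone. Pltp, which moves phospholipid between lipoproteins, was the exception in size, with 3.75, 27.7, 23.4, 16.5 and 14.2 FPKM on HFD and 104, 120.0, 132 and 123 FPKM on NCD (log2 fold change -2.96, SE 0.44, adjusted p = 0.00167). All HFD livers were below all NCD livers, as the selection among the largest falls required, and mouse 151 was lowest. In bile acid synthesis and transport, 4 of 19 rose and 2 fell (11.9% and 10.3% of all genes), the falls being 4 without mouse 151. Cyp7a1, the rate-limiting enzyme of bile acid synthesis, was 24.7, 30.3, 61.5, 90.4 and 53.5 FPKM on HFD and 19.3, 9.71, 9.0002 and 11.2 FPKM on NCD; the groups did not overlap, and mice 151 and 152 came nearest to the highest NCD liver (log2 fold change 1.91, SE 0.37, adjusted p = 0.00575). Nr1h4, the bile acid receptor FXR, rose (0.76, adjusted p = 0.00094) and Abcb11, the export pump for bile salts, fell, with 97.8, 81.8, 91.3, 88.7 and 95.8 FPKM on HFD and 216, 274, 202 and 167 FPKM on NCD (log2 fold change -1.21, SE 0.13, adjusted p = 0.000265). Cyp8b1, which sets the ratio of bile acid species, did not pass (log2 fold change 0.21, SE 0.48, adjusted p = 0.798).

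Carbohydrate genes rose more often than they fell, with 9 of 18 higher and 3 lower (median 0.38), beside 11.9% and 10.3% of all genes. The rises included Ppp1r3b (0.82), which targets phosphatase to glycogen, the glycogen synthase Gys2 (0.72), Fbp1 (0.68) and the glucose transporter Slc2a2 (0.44). The falls were Pck1, the cytosolic entry enzyme of gluconeogenesis, Ppargc1a and Ppp1r3g. Pck1 measured 523, 481, 658, 641 and 841 FPKM on HFD and 1122, 1717, 1632 and 1758 FPKM on NCD (log2 fold change -1.31, SE 0.18, adjusted p = 0.0012), and Ppp1r3g, another glycogen-targeting subunit, was 0.409, 1.95, 0.645, 0.874 and 0.250 FPKM on HFD and 17.8, 12.1, 5.34 and 17.2 FPKM on NCD (log2 fold change -2.90, SE 0.34, adjusted p = 0.000493). Both were separated in every liver, which the selection among the largest falls required for Ppp1r3g. G6pc, which releases free glucose, did not pass (0.12, adjusted p = 0.708). In insulin and IGF signalling, 3 of 18 rose and 3 fell, beside the same shares of all genes. Igfbp1, an IGF-binding protein that insulin represses, was 12.9, 14.6, 15.1, 14.9 and 6.01 FPKM on HFD and 201, 166, 43.5 and 111 FPKM on NCD (log2 fold change -3.12, SE 0.42, adjusted p = 0.00102). NCD mouse 197 came nearest to the HFD livers, without overlap as the selection among the largest falls required. Igfbp2 (-1.25) and the insulin-pathway inhibitor Trib3 (-1.49) fell and Igfals (1.02) rose, whereas Irs2 did not pass (adjusted p = 0.197).

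Of 21 genes of the urea cycle and amino acid breakdown, 10 rose and 1 fell (median 0.24), beside 11.9% and 10.3% of all genes. Asl, which splits argininosuccinate, was 221, 177, 194, 220.4 and 257 FPKM on HFD and 99.5, 114, 94.9 and 114 FPKM on NCD (log2 fold change 1.01, SE 0.11, adjusted p = 0.000345), and the alanine transaminases Gpt2 (0.83) and Gpt (0.67) also rose, all 3 without overlap. The branched-chain ketoacid dehydrogenase genes Bckdha (0.31), Bckdhb (0.44) and Dbt (0.48) were among the rises. Tat, the tyrosine transaminase, was the gene that fell (log2 fold change -1.17, SE 0.27, adjusted p = 0.0134). Cps1, Ass1 and Arg1, other steps of urea synthesis, lay between -0.03 and 0.10 and did not pass.

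Clock genes formed the list with the largest share of rises, 12 of 20 tested, with 3 falls and a median of 1.01. The repressors Per2 and Per3 were higher. Per2 measured 13.6, 15.2, 15.04, 15.7 and 22.9 FPKM on HFD and 3.76, 3.62, 2.84 and 3.87 FPKM on NCD (log2 fold change 1.94, SE 0.14, adjusted p = 4.02e-05), and Per3 measured 8.08, 8.88, 8.98, 11.7 and 8.69 FPKM on HFD and 1.51, 1.43, 1.47 and 1.72 FPKM on NCD (log2 fold change 2.01, SE 0.10, adjusted p = 6.4e-06). Neither gene overlapped between diets. The output factors Dbp (1.28), Tef (1.14) and Hlf (1.09), the kinase Wee1 (2.14), Usp2 (1.94), Ciart (1.91), Cry1 (0.98) and Cry2 (0.88) rose as well. On the other arm of the loop, Nr1d1, the repressor REV-ERBα, was 12.9, 13.2, 15.8, 14.4 and 14.9 FPKM on HFD and 44.03, 64.8, 64.7 and 57.6 FPKM on NCD (log2 fold change -1.93, SE 0.12, adjusted p = 1.92e-05). Arntl, which encodes BMAL1, fell by 0.68 (adjusted p = 0.00785) and Clock by 0.55 (adjusted p = 0.00251). Per1 (-0.078) and Nr1d2 (0.17) did not pass. The hour at which each liver was collected is not given in the sources used here. Its part in the differences between diets, in clock genes or in other genes, was not tested. Of 10 glucocorticoid-responsive genes, Mt1 (2.68), Fkbp5 (1.68) and Nr3c1 (0.40) rose and 3 fell, led by Zbtb16 (-1.86).

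Major urinary proteins are carriers of scent molecules that male mouse liver secretes under growth hormone control. Of 21 Mup genes tested, a family picked after its members were seen among the largest rises, 8 were higher on HFD and none lower. Over all genes, 11.9% were higher and 10.3% lower. The FPKM of the Mup genes summed to 40244, 26031, 23899, 36525 and 41247 on HFD and 12511, 12141, 18779 and 15431 on NCD, without overlap, and mice 152 and 153 were the lowest of the HFD group. Mup7 measured 7374, 3539, 4329.9, 7546 and 8419 FPKM on HFD and 710.3, 476, 1709.9 and 457 FPKM on NCD (log2 fold change 3.04, SE 0.41, adjusted p = 0.00096). Mup20, the pheromone darcin, was 4628, 3316, 2336, 4129 and 3590.3 FPKM on HFD and 3085, 3742, 3478 and 4578 FPKM on NCD and overlapped fully (log2 fold change -0.07, SE 0.19, adjusted p = 0.834). The copies are nearly identical, how reads that fit several genes were counted is not given in the sources used here, and the split between single Mup genes is uncertain. Estimating the spread over all 18 livers ended the calls of Mup7 (adjusted p = 0.132) and Mup12 (adjusted p = 0.0942); that spread includes WT NCD mouse 182, at 1.31 FPKM of Mup7. Of 11 male-biased genes tested, Mup20 among them, 2 rose, led by Selenbp2, with 1 rise without mouse 151, 156, 157, 166, 179 or 199, and Elovl3, Cyp4a12a (-1.46) and Cyp4a12b (-2.06) fell. Of 5 female-biased genes tested, of 18 listed, Cyp2b9 and Fmo2 (1.24) rose. Cyp2b9 was 6.42, 14.9, 31.3, 4.56 and 5.54 FPKM on HFD and 0.412, 0.276, 0.0609 and 1.39 FPKM on NCD (log2 fold change 2.87, SE 0.50, adjusted p = 0.00342). Every HFD liver exceeded the NCD livers, as the selection among the largest rises required.

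Drug-metabolising P450 genes were split, with 6 of 27 higher and 6 lower, beside 11.9% and 10.3% of all genes. Por, which feeds electrons to all microsomal P450 enzymes, was 279, 232, 303, 299 and 247 FPKM on HFD and 75.4, 87.8, 94.2 and 119.8 FPKM on NCD (log2 fold change 1.53, SE 0.13, adjusted p = 0.000126). Nr1i3, the receptor CAR, rose (0.98, adjusted p = 0.00154), while Cyp2c55 (-1.79), Cyp3a11 (-1.10) and Cyp2c29 (-1.02) fell. Glutathione transferase and redox genes fell more often, with 12 of 31 lower and 2 higher (median -0.58), beside 10.3% and 11.9% of all genes. There was 1 rise when any mouse other than 157 was left out. Gstm1, the most abundant of those that fell, was 823, 1165, 1008, 913 and 826 FPKM on HFD and 2443, 2594, 2241 and 4065 FPKM on NCD (log2 fold change -1.55, SE 0.18, adjusted p = 0.000421). Gstm3 (-2.11), Gstm4 (-1.77), Gsta2 (-1.68) and Gsta4 (-0.79), which clears lipid aldehydes, fell too, as did Gclc (-1.01), the rate-limiting step of glutathione synthesis. Several of these genes have close paralogs, so reads may be split between them.

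Of 24 acute-phase genes, 11 rose and 4 fell, beside 11.9% and 10.3% of all genes, with a median of 0.64. Saa1, a serum amyloid that rises in inflammation, was 28.8, 133, 29.9, 14.1 and 18.1 FPKM on HFD and 8.37, 7.19, 3.41 and 4.31 FPKM on NCD (log2 fold change 2.31, SE 0.56, adjusted p = 0.0162). Mouse 152 was far above the others, and the remaining HFD livers were still above all NCD livers. Lcn2 followed the same pattern, with 5.48, 53.2, 7.78, 2.47 and 2.82 FPKM on HFD and 0.862, 1.31, 0.414 and 0.543 FPKM on NCD (log2 fold change 2.26, SE 0.70, adjusted p = 0.044), but its call was lost when mouse 151, 153, 166, 179, 197 or 199 was left out (adjusted p up to 0.103). Saa4 (1.33, adjusted p = 0.000197), a constitutive serum amyloid, the iron hormone Hamp (1.30) and Serpina3m (1.03) rose. The fibrinogen chains Fga, Fgb and Fgg and Apcs fell by 0.42 to 0.56, none of them without overlap, and none of these 4 passed without mouse 153, 166 or 197, while 2 passed without mouse 152, 157 or 179. Without mouse 152, 13 acute-phase genes rose. The same mouse was highest for the Kupffer cell and macrophage markers, of which the 14 tested summed to 109 to 414 FPKM on HFD and 153 to 206 FPKM on NCD. None of the 14 passed the test, and Adgre1, which encodes F4/80, read 1.45, 6.82, 2.87, 2.70 and 2.62 FPKM on HFD and 3.25, 3.23, 2.47 and 1.999 FPKM on NCD. The part of these markers in the acute-phase values was not tested.

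Genes of other cell types were called in few cases, and mouse 152 bore on these counts. None of 10 endothelial, 16 stellate cell and matrix, 4 bile duct or 6 MHC class II genes passed with all 9 mice. Without mouse 152, 5 endothelial and 2 stellate cell genes were lower on HFD, and without mouse 197, 1 bile duct gene was. MHC class II genes stayed at 0 calls whichever mouse was left out, and Col1a1 stood at 0.27 (adjusted p = 0.649). Of 5 lipid-associated macrophage markers tested, of 11 listed, 4 fell, among them Fabp5, Cd9 (-1.98) and Lpl. The other was Cd63 (-0.74, adjusted p = 0.0251), which overlapped between diets. Its call was lost without mouse 151, 156, 157, 166, 179 or 199 (adjusted p up to 0.0633). These markers are not restricted to macrophages, and Trem2, the defining marker, was at or under 1.001 FPKM in every knockout liver and below the filter. The immunoglobulin gene Ighm fell (-1.78, adjusted p = 0.0176), with mouse 152 within the NCD range. It was the gene called among 5 lymphocyte markers tested, of 19 listed, and 2 of those tested passed without mouse 152. Cfd, which adipocytes express strongly, was 5.04, 12.3, 38.1, 7.29 and 2.25 FPKM on HFD and 0.598, 0.125, 0.681 and 0.837 FPKM on NCD (log2 fold change 2.66, SE 0.59, adjusted p = 0.0113). Of the other adipocyte markers, Adipoq was at or under 0.25 FPKM and Plin1 at or under 0.0263 FPKM in every knockout liver. The 8 adipocyte markers listed summed to 8.13 to 42.2 FPKM on HFD and 5.58 to 7.29 FPKM on NCD, and their part in the value of Cfd, one of them, was not tested.

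Of 19 ER stress genes 8 fell (median -0.40), beside 10.3% of all genes. Among them were the chaperone Hspa5, with 167, 112, 147, 108 and 145 FPKM on HFD and 201, 219, 189 and 189.7 FPKM on NCD (log2 fold change -0.57, SE 0.13, adjusted p = 0.0124), and Manf (-1.03). Of 71 nuclear genes of the respiratory chain 13 fell (18.3% beside 10.3% of all genes), with a median of -0.14. That count was 4 without mouse 197 or without mouse 199, from 6 to 8 without mouse 151, 152, 153 or 156, and 26 on the TPM scale. Among 13 mitochondrially encoded genes, mt-Nd5 (0.38) and mt-Nd6 (0.33) rose, calls that were lost with no filter on low genes (adjusted p = 0.167 and 0.295). Of 7 necroptosis genes tested, 3 rose, beside 11.9% of all genes. Among them were Fadd (0.43) and Ripk1 (0.32), which sit upstream of MLKL, and Mlkl did not pass. Of 15 interferon-stimulated genes 3 rose, led by Ifit3 (0.69), with 6 rises without mouse 151 and 1 without mouse 153, 166 or 199. Of 9 immediate early genes 2 fell, with 1 fall without mouse 156, 166 or 199 and 0 without mouse 179. Of 11 proliferation genes tested, of 21 listed, Rrm2 rose (1.08) and 1 fell, a fall that was lost without mouse 151, 153, 156, 157, 166 or 179 and that 3 genes showed without mouse 152.

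Pericentral and Wnt target genes mark the hepatocytes around the central vein. Of 12 tested, 4 rose, with a median of 0.43. Tbx3, a transcription factor downstream of Wnt, was 10.1, 10.3, 9.31, 7.60 and 8.59 FPKM on HFD and 2.71, 3.48, 4.88 and 5.50 FPKM on NCD (log2 fold change 1.01, SE 0.16, adjusted p = 0.00217). The Wnt feedback gene Rnf43 (0.72), Sp5 (0.58) and the glutamate transporter Slc1a2 (0.70) rose too, whereas Glul (0.32), Axin2 (0.30) and Lgr5 (-0.087) did not pass.

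The same diet contrast in WT liver called 3374 of 13330 genes (25.3%), and 3773 without mouse 182. Whether the diet effect differed between genotypes was tested as an interaction over the 18 livers, and 2 of 13248 genes (0.0151%) passed, both with a rise on HFD in the knockouts and a fall in WT. One of them was Gm5540. The unadjusted p was under 0.05 for 811 genes. On the recovered reads edgeR called 1 gene and DESeq2 58, and without WT NCD mouse 182 limma called 3.

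Gm5540, a predicted gene, had 2 distinct ranges. It was 8.27, 8.37, 9.57, 10.01 and 8.998 FPKM on HFD and 0.507, 0.684, 0.587 and 0.482 FPKM on NCD in the knockouts, while WT livers read 12.6, 10.9, 24.02 and 11.8 FPKM on NCD (mice 165, 180, 182 and 183) and 0.76, 0.66, 0.33, 9.84 and 0.41 FPKM on HFD (mice 154, 155, 161, 162 and 164). All 18 livers were thus either at or under 0.76 FPKM or at or above 8.27 FPKM, and 1 WT HFD liver was in the upper range. The difference in diet effect was 5.42 on the log2 scale (adjusted p = 0.00217), or 5.17 without mouse 182 (adjusted p = 0.00765).

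**Figure D5:**
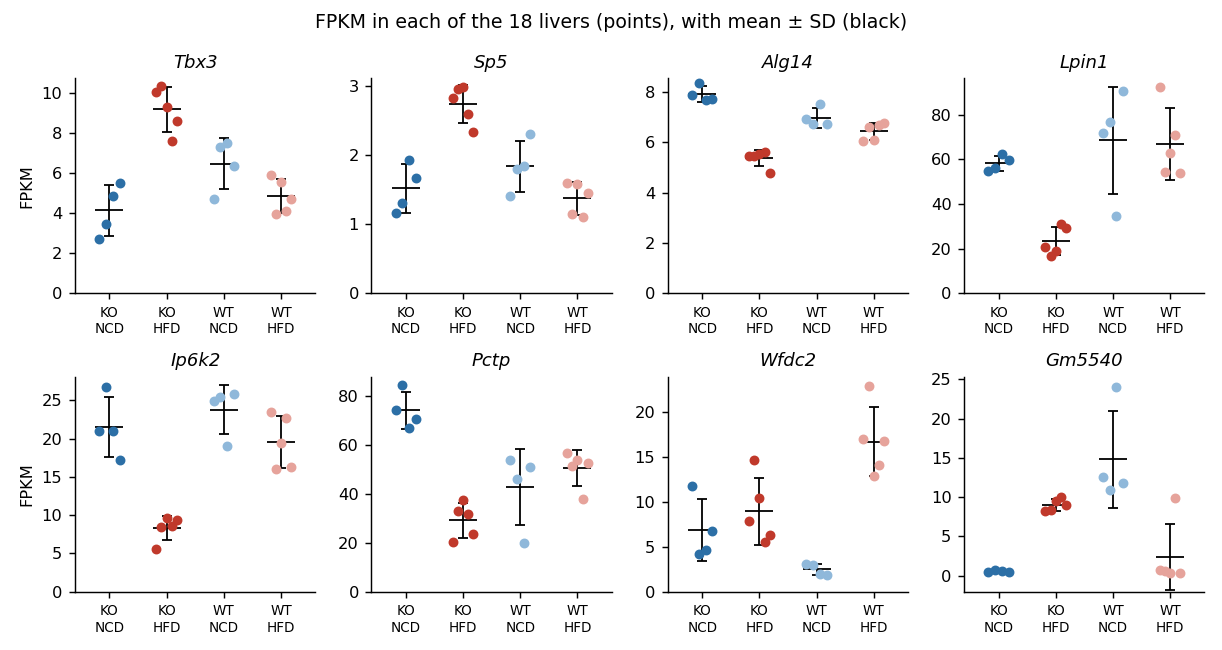
FPKM of 8 genes in each of the 18 livers, by genotype and diet, with black bars for mean ± SD (n = 4 on NCD, n = 5 on HFD) and a linear axis for each gene. Tbx3 and Sp5 are higher and Lpin1, Ip6k2, Pctp and Alg14 lower on HFD in the knockouts; Gm5540 takes either low or high values, with 1 WT HFD liver among the high ones.

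The remaining genes with the smallest unadjusted p in each direction did not pass the correction with all 18 livers. When 1 mouse was left out, limma's adjusted p of the difference ranged from 0.0219 to 0.202 for Tbx3. It ranged from 0.0409 to 0.255 for Sp5 and from 0.00633 to 0.217 for Sertad3. Pctp, Ip6k2, Alg14, Topors, Wfdc2 and Apbb3 did not pass whichever mouse was left out. Tbx3 stood at 1.01 in the knockouts and -0.35 in WT (difference 1.36, 95% interval 0.88 to 1.84, adjusted p = 0.0582), and Sp5 at 0.58 and -0.25 (adjusted p of the difference 0.101). Without mouse 182 the WT values were -0.28 and -0.25 and the differences 1.29 (adjusted p = 0.0855) and 0.83 (adjusted p = 0.117). Pctp, a phosphatidylcholine transfer protein, was 20.2, 33.1, 37.5, 31.5 and 23.7 FPKM on HFD and 74.3, 84.5, 66.99 and 70.4 FPKM on NCD in the knockouts and changed by -1.34, beside 0.32 in WT (difference -1.66, 95% interval -2.37 to -0.95, adjusted p = 0.13). Ip6k2, an inositol hexakisphosphate kinase, was 5.62, 8.52, 9.60, 8.56 and 9.39 FPKM on HFD and 21.004, 26.8, 21.04 and 17.2 FPKM on NCD, a change of -1.27 beside -0.28 in WT (difference -0.996, 95% interval -1.46 to -0.53, adjusted p = 0.172). Without mouse 182, the WT value of Pctp was -0.0052 and the difference -1.34 (adjusted p = 0.0654), and the WT value of Ip6k2 was -0.38 and the difference -0.90 (adjusted p = 0.209). In the knockouts the diets did not overlap for Tbx3, Pctp or Ip6k2.

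Lpin1, which the study names for liver, stood at -1.32 in the knockouts and 0.018 in WT (difference -1.33, 95% interval -2.05 to -0.62, adjusted p = 0.249). Without mouse 182, whose 34.8 FPKM was the lowest WT NCD value, the WT change was -0.27 and the difference -1.04 (adjusted p = 0.209). Alg14 and Topors differed by -0.39 and 0.37 (-0.42 and 0.36 without mouse 182), and Sertad3, Wfdc2 and Apbb3, whose change did not pass in the knockouts (-0.26, 0.37 and -0.085), changed by -1.24, 2.34 and 0.61 in WT (-1.19, 2.27 and 0.54 without mouse 182), with adjusted p of the differences between 0.0582 and 0.185 for these 5 genes, and between 0.0668 and 0.209 without mouse 182. Mup17 rose by 4.32 in the knockouts and stood at 2.86 in WT (adjusted p = 0.272), or at 0.56 (adjusted p = 0.205) without mouse 182, which was at 0.156 FPKM. Its difference between genotypes without that mouse was 3.75 (adjusted p = 0.0868).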

How the data were processed

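Liver RNA was sequenced as poly(A) libraries with paired reads. The authors trimmed reads with fastp, aligned them to mm39 with HISAT2, counted them with featureCounts 1.5.0-p3, and deposited FPKM for 56748 genes, with gene lengths (other values) and counts for genes in the comparison tables. Strandedness, annotation release and the handling of multi-mapped reads are not given in the sources used here. The deposited fold changes and p-values and 90 columns of other samples were not used. Reads recovered from FPKM were whole within 0.01.

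Diet groups were compared with limma 3.58.1 (R 4.3.3) on log2(FPKM + 1), two-sided, without covariates, over genes with a mean of at least 0.5 FPKM, with Benjamini-Hochberg adjustment. The fit was tried on simulated counts that gave every gene the same relative spread and held no mouse that stood apart, unlike these livers. edgeR 4.0.16 and DESeq2 1.42.0 on recovered reads, other filters and leaving out each mouse were alternatives. Named genes were the 15 largest rises and falls with at least 5 FPKM and no overlap (predicted genes left out), up to 4 called members per list, pathway-limiting genes, Mlkl, Ip6k2 and Lpin1, and the 5 smallest interaction p-values each way; others named from the lists were chosen after their values were seen, and some genes under this rule are not reported here. The comparison and the gene lists were chosen with earlier results of these data known. Each mouse is 1 library, and no pair of replicate livers agreed within sampling noise (chi-square per gene at least 18.9).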

Additional observations from a re-analysis of the deposited data

Results flagged for a closer look

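In 30 of 332 gene and diet groups (9.04%) 1 liver stood outside the others by Dixon's test, which flags about 1 in 20 groups by chance. Mouse 152 accounted for 10 of them, mouse 157 for 6 and mouse 199 for 5. In HFD mouse 152 the outlying values were Saa1 at 133 FPKM, Lcn2 at 53.2, Ighm at 13.8, Fkbp5 at 13.8, Adgre1 at 6.82, Cd9 at 5.79, Mlkl at 3.46, Lpl at 2.24, Cyp2c55 at 1.41 and Trem2 at 1.001 FPKM. In HFD mouse 157 they were Tat at 923 FPKM, Mlxipl at 122, Nnmt at 117, Per2 at 22.9, Igfbp1 at 6.01 and Alg14 at 4.79 FPKM. HFD mouse 156 was outlying for Scap at 20.4, Per3 at 11.7 and Rnf43 at 9.22 FPKM, HFD mouse 151 for Elovl2 at 161 and Ip6k2 at 5.62 FPKM, and HFD mouse 153 for Cfd at 38.1 FPKM. In NCD mouse 199 they were Ttr at 7550 FPKM, Hyou1 at 27.7, Cidec at 27.1, Cidea at 5.33 and Lpl at 2.99 FPKM. NCD mouse 179 was outlying for Insig2 at 180.3 and Mt1 at 4.93 FPKM, and NCD mouse 197 for Trem2 at 0.139 FPKM.

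The diet effect differed between genotypes in the interaction test for Gm5540, by 5.42 on the log2 scale.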

How the results depend on the processing

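The count of genes differing between diets in the knockouts ranged from 2240 (without mouse 197) to 2799 when 1 mouse was left out and from 2273 (no filter) to 3649 (spread estimated over all 18 livers) elsewhere, and 349 of them changed by 1 or more on the log2 scale in either direction. The interaction count of 2 became 1 with edgeR, 58 with DESeq2 and 4 with a mean of at least 1 FPKM, and ranged from 2 to 5 when 1 mouse was left out, with 5 without WT NCD mouse 165. PC1 held 33.65% of the variance with genes scaled and 53.46% over the 500 most variable genes. Of 179 named genes, none past the threshold in either fit reversed its direction in any setting, whereas some genes that did not pass changed sign when 1 mouse was left out, such as Cyp8b1 (-0.21 to 0.51) and Adgre1 (-0.14 to 0.28); 26 were no longer called with no filter, 5 on the TPM scale and 7 to 19 when 1 mouse was left out. The fall of 8 ER stress genes became 5 with no filter. The causes of these changes were not tested. No paired analysis was possible because the mice on the 2 diets were different animals that shared no numbers.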
